A study of Caenorhabditis elegans with 12 samples.

Results

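The cytochrome P450 genes of Caenorhabditis elegans were taken as the genes whose WBcel235 name begins with cyp followed by a number and a letter, and the count files held 74 of them among 46589 genes. They fell into 25 subfamilies, which share the number and letter of their names. The study asked how loss of a DNA glycosylase bears on a worm model of human tau disease. It sequenced RNA of whole worms at day 1 in 12 libraries, 1 for each genotype at each temperature, from about 5000 worms grown on 3 plates. At 22 °C the backgrounds were N2, the wild type, and an ung-1 mutant, and at 20 °C they were N2 and an nth-1 mutant. Each of these 4 carried no tau, the tau aggregate strain BR5270 or the anti-aggregate strain BR5271. Background knowledge of these strains, not the labels, gives that both express a fragment of human tau in neurons, altered in BR5271 so that it resists aggregation. RNA of the whole worm is therefore read while the transgene acts in neurons. UNG-1 and NTH-1 are glycosylases that start base excision repair, and the sources used here do not give the mutant alleles.

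Cytochrome P450 enzymes hold a heme group with which they insert an oxygen atom into fatty acids, sterols and foreign compounds. Those of the endoplasmic reticulum take their electrons from NADPH-cytochrome P450 reductase, which is EMB-8 in the worm. Many worm members are transcribed in the intestine and several rise when worms meet foreign chemicals, while others make lipids for the eggshell.

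Each library is the single sample of its group, so the p-values rest on the disagreement among backgrounds together with the noise of single libraries, and the spread between cultures of one strain was not measured. Library totals ran from 15124127 to 35204808 counts. Levels are given as CPM, counts relative to the library's TMM-scaled total, and error bars and intervals cover counting error only. The transcript of ung-1 stood at 11.85 to 14.46 CPM in the 3 ung-1 libraries and at 39.89 to 46.57 CPM in wild type at 22 °C. The nth-1 transcript stood at 5.06, 11.35 and 5.08 CPM in the nth-1 libraries with no tau, anti-aggregate tau and aggregate tau, against 22.96 to 26.75 CPM in wild type at 20 °C. The anti-aggregate value of the library labelled as nth-1 lay between the other nth-1 libraries and wild type. The titles of these 3 libraries name ung-1 where their genotype label names nth-1. Their ung-1 transcript stood at 27.01, 49.62 and 28.01 CPM in the same order, against 62.1, 62.34 and 37.72 CPM in wild type at 20 °C. Calls for nth-1 are therefore also given without the nth-1 library with anti-aggregate tau. The fold changes and comparisons of levels for nth-1 include it.

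Of the 74 genes, 60 passed the filter on low counts and were tested among 15245 genes, and 14 did not. A mean of at least 5 CPM was reached by 23 members, and 30 members stayed under 1 CPM. Chromosome V carried 41 members, chromosome II 12, chromosomes IV and X 7 each, chromosome III 6 and chromosome I 1. The untested members were cyp-13A11, cyp-14A3, cyp-23A1, cyp-25A6, cyp-33B1, cyp-33C1, cyp-33C6, cyp-33C11, cyp-33C12, cyp-34A1, cyp-35A1, cyp-35B1, cyp-35B2 and cyp-35B3. Among these, cyp-35B1 had the highest total, 70 counts over 12 libraries, and its level ran from 0 to 0.916 CPM. Cyp-35B3 had 0 counts in every library, and the limit that a count of 0 allows is 3 counts, or 0.0833 to 0.186 CPM by library.

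The level of the whole family followed a few genes. Per kilobase of exon, averaged over the 12 libraries, cyp-31A2 stood highest at 67.8 CPM, cyp-31A5 followed at 56.1 and cyp-31A3 at 55.0. CYP-31A2 and CYP-31A3 make lipids of the eggshell's permeability barrier together with EMB-8. Cyp-44A1, the worm's P450 of the mitochondrial kind, followed at 41.8 CPM per kilobase, and cyp-35A2, an intestinal gene that responds to foreign chemicals, at 31.9. The next 7 were cyp-25A2 at 12.7, cyp-35C1 at 11.8, cyp-37A1 at 11.1, cyp-14A5 at 9.73, cyp-25A1 at 8.97, cyp-43A1 at 7.95 and cyp-34A8 at 6.74 CPM per kilobase. The 3 cyp-31A genes held 42.5% of the family's mean summed level, cyp-44A1 9.97%, the cyp-35A genes 8.82% and the cyp-25A genes 6.88%.

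**Figure D1:**
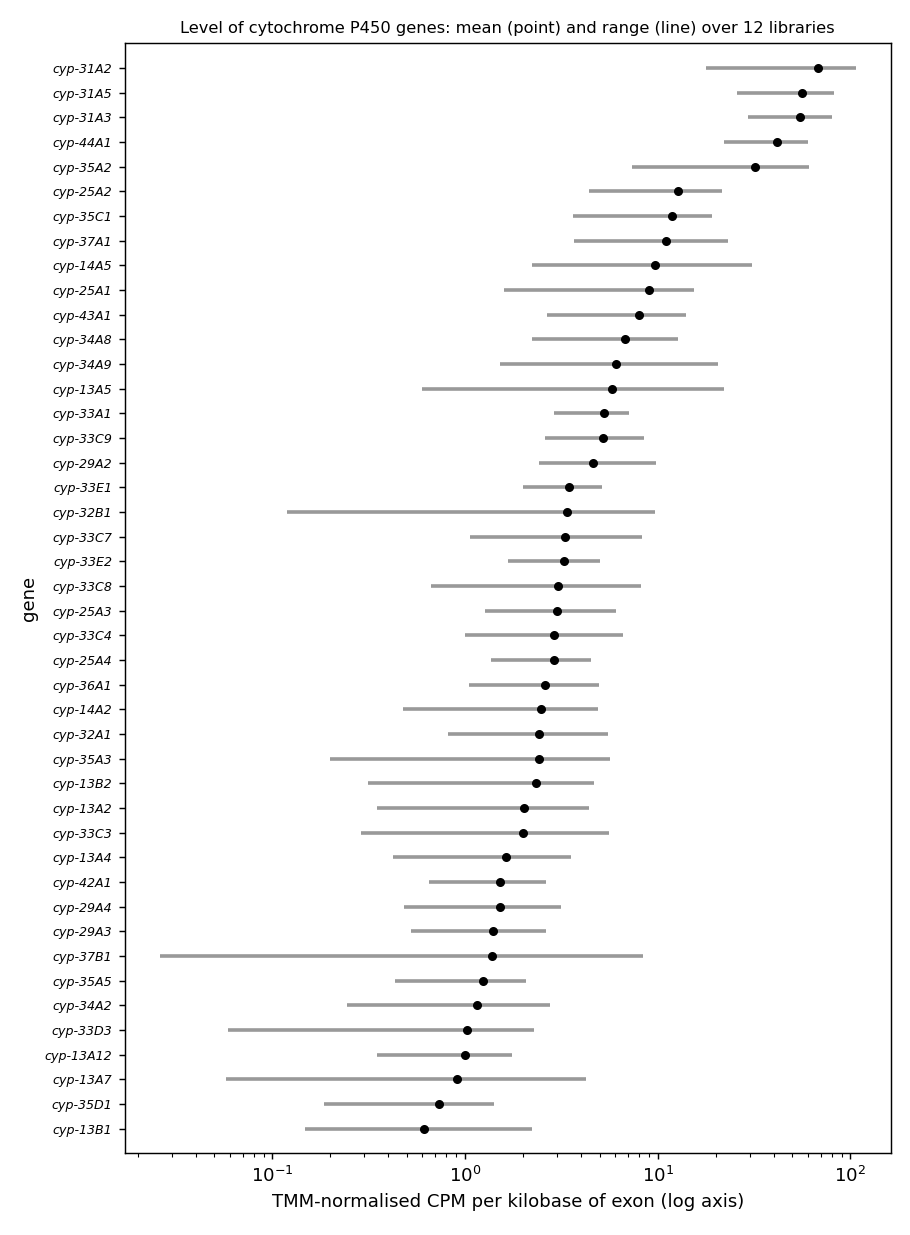
Level of each member with a mean of at least 1 CPM, in CPM per kilobase of exon on a log axis, where the point is the mean over the 12 libraries and the line runs from the lowest to the highest library. The cyp-31A genes, cyp-44A1 and cyp-35A2 stand above the rest, and cyp-32B1 and cyp-37B1 have far longer lines than cyp-44A1.

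The summed level of the 74 genes was 651 ± 141.6 CPM (SD over 12 libraries). It was lowest in the nth-1 libraries with aggregate tau, at 407.5 CPM, and with no tau, at 414.4 CPM. It was highest in wild type with anti-aggregate tau at 22 °C, at 850.7 CPM, and in ung-1 with aggregate tau, at 848.1 CPM. Without the cyp-31A genes the sum ran from 237.7 CPM, in nth-1 with anti-aggregate tau, to 542.9 CPM, again in wild type with anti-aggregate tau at 22 °C.

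The eggshell genes were read first because they dominate the family. Cyp-31A3 (chromosome IV, 4761049 to 4762885) stood at 128.3, 127.6 and 68.89 CPM in wild type at 20 °C with no tau, anti-aggregate and aggregate tau. In the nth-1 libraries it stood at 50.36, 99.28 and 46.91 CPM in the same order. At 22 °C it stood at 97.66, 91.70 and 70.56 CPM in wild type and at 93.84, 84.45 and 94.77 CPM in ung-1. The nth-1 libraries with no tau and aggregate tau were thus the lowest, and the aggregate library was the lowest of its 3 on the wild-type background at both temperatures. Cyp-31A5 (chromosome IV, 13401289 to 13403842) kept a count of 0.769 to 0.992 for each count of cyp-31A3 over the 12 libraries.

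Cyp-31A2 (chromosome IV, 11403961 to 11406091) departed from its relatives in 1 library. It had 709 counts, or 29.1 CPM, in wild type with no tau at 22 °C, which is 0.298 counts for each count of cyp-31A3, and 1.14 to 1.52 in the other 11 libraries. Elsewhere it stood between 60.55 CPM, in nth-1 with aggregate tau, and 173.8 CPM, in wild type with no tau at 20 °C. Reads may be shared among these similar genes, because the sources used here do not say how reads that match several places were counted. On the wild-type backgrounds, aggregate over no tau had a log2 fold change of 0.35 for cyp-31A2, and over the alternatives it ran from −0.74 to 1.75, so no direction is read from it.

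Markers of oocytes and eggshell were low in the same nth-1 pair and, like cyp-31A3, lowest with aggregate tau in wild type at both temperatures. In wild type at 22 °C they summed to 8806 CPM with aggregate tau, against 14170 and 10950 CPM with no and anti-aggregate tau. At 20 °C these sums were 8602 CPM against 12390 and 13040 CPM. Their order differed elsewhere. All 12 listed genes were found and none stood at 0 in every library, and their summed level was lowest in nth-1 with aggregate tau (5546 CPM) and no tau (6971 CPM) and highest in nth-1 with anti-aggregate tau (15180 CPM). The cyp-31A sum was 143.5 and 154.5 CPM in the former pair of libraries, and 412.9 to 417.7 CPM in wild type at 20 °C with anti-aggregate and no tau. In nth-1 with anti-aggregate tau the cyp-31A sum was 323.7 CPM. In wild type with no tau at 22 °C the oocyte markers summed to 14170 CPM, the second highest, beside a cyp-31A sum of 223.1 CPM. That cyp-31A sum holds the low cyp-31A2 value described above. Cyp-31A3, at 97.66 CPM there, was at its highest among the libraries at 22 °C, as the oocyte sum was. The part of the oocyte content in the cyp-31A levels was not tested. In RNA of whole worms, fewer cells of a type and less RNA per cell cannot be told apart.

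**Figure D2:**
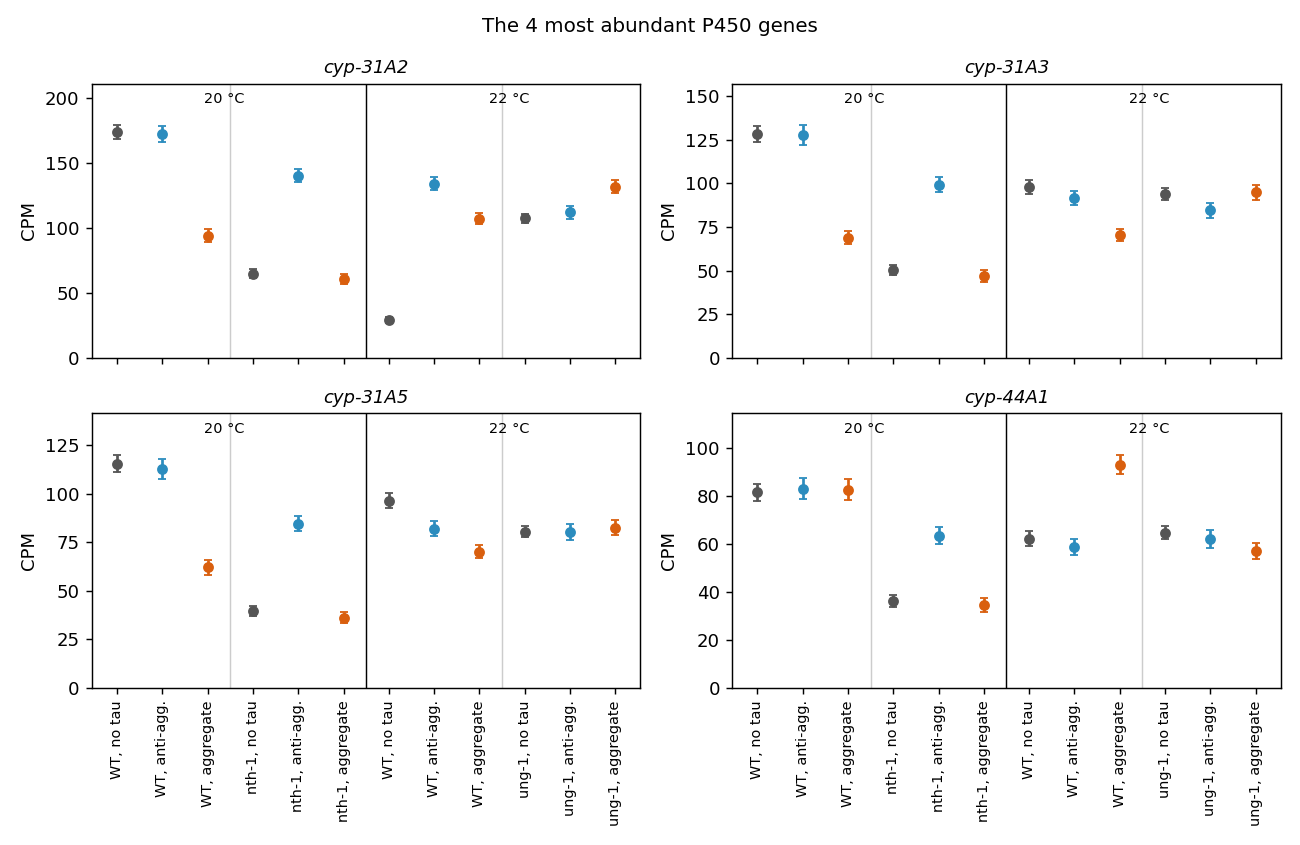
Levels in CPM (linear axis from 0) of cyp-31A2, cyp-31A3, cyp-31A5 and cyp-44A1 in the 12 libraries, 1 point a library with its 95% Poisson counting interval, by temperature, background and tau state. The nth-1 libraries with no tau and aggregate tau are low in all 4 genes, and cyp-31A2 alone is low in wild type with no tau at 22 °C, at 29.1 CPM.

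Aggregate tau on the wild-type backgrounds gave the 1 call of the family, cyp-14A5, a member of a subfamily that responds to foreign chemicals. Cyp-14A5 (chromosome V, 5421018 to 5423282) stood at 48.14 CPM with aggregate tau at 22 °C, against 9.36 CPM with no tau and 7.75 CPM with anti-aggregate tau. At 20 °C it stood at 34 CPM with aggregate tau, against 3.47 and 3.72 CPM. Both aggregate libraries lay above the other 10 libraries, in which it ran from 3.47 to 16.03 CPM. The log2 fold change was 2.83 ± 0.50 (SE), with an adjusted p of 0.0491 in edgeR's quasi-likelihood test. In this comparison 1.49% of all genes tested were called higher and 0.0197% lower, and the 1 of 60 members stands near that background.

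The call of cyp-14A5 rests on the processing. Its adjusted p ran from 1.29e-06 to 0.428 over 19 alternatives in edgeR, DESeq2 and limma voom and was past the threshold in 8 of them, while its log2 fold change stayed between 2.46 and 3.20. It ended at 0.0535 with DESeq2's size factors in edgeR, and at 0.0505 under a low-count filter by tau state, which had been run first.

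Other members had high values in the same libraries without passing the test. Cyp-33C3 (chromosome V, 2242778 to 2244865) stood at 9.93 and 5.79 CPM in the wild-type aggregate libraries at 22 and 20 °C and at 0.512 to 5.39 CPM in the other 10. Cyp-25A3 (chromosome III, 3837538 to 3839735) stood at 10.81 and 7.26 CPM in them and at 2.24 to 6.69 CPM elsewhere. Cyp-43A1 (chromosome X, 5714522 to 5717562) stood at 23.79 and 21.31 CPM, but nth-1 with no tau and aggregate tau came close at 19.60 and 20.33 CPM. In all of these the wild-type aggregate libraries ranked highest, but the one at 20 °C only by a little. For cyp-33C3 it stood at 5.79 CPM against 5.39 CPM in nth-1 with aggregate tau. For cyp-25A3 it stood at 7.26 CPM against 6.69 CPM in the next library. The log2 fold changes on wild-type backgrounds were 2.95 ± 0.61 for cyp-33C3 (edgeR adjusted p = 0.0758), 1.60 ± 0.39 for cyp-25A3 (0.0949) and 1.80 ± 0.50 for cyp-43A1 (0.109).

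**Figure D3:**
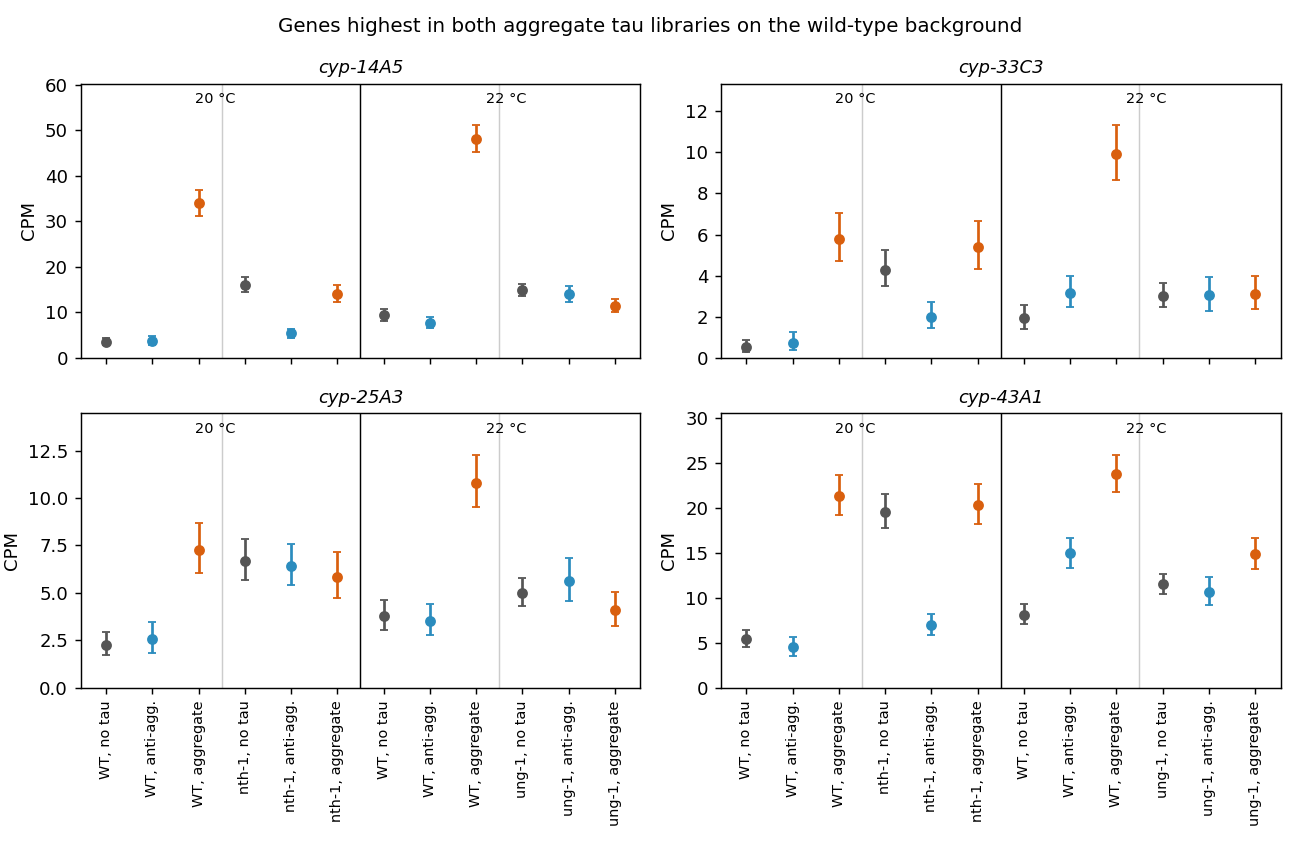
Levels in CPM (linear axis from 0) of cyp-14A5, cyp-33C3, cyp-25A3 and cyp-43A1 in the 12 libraries, 1 point a library with its 95% Poisson counting interval. Orange points mark aggregate tau, and those of the wild-type background are the highest of each panel, at 48.1 and 34 CPM for cyp-14A5, while the orange points of the mutants lie among the other libraries or, for cyp-43A1 in nth-1, close to the highest.

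Over the 60 tested members, aggregate over no tau on the wild-type backgrounds had a median log2 fold change of 1.02 with 53 positive values, beside 0.46 over all genes with 60.6% positive. The medians were 1.22 and 0.67 under total counts and 0.95 and 0.40 under DESeq2's size factors. The members' median was 0.39 without the wild-type aggregate library at 20 °C and 1.59 without that at 22 °C. An unadjusted p under 0.05 was reached by 16 members, 26.7% of them, and by 33.5% of all genes, so the members' share was below the background. All 10 tested cyp-13A genes, all 7 cyp-33C genes and all 7 cyp-34A genes had positive values, with medians of 1.54, 1.75 and 1.48, and these counts were the same under total counts and DESeq2's size factors. Some of these rest on few counts, such as cyp-13A3, cyp-13A8 and cyp-34A5, with totals of 43, 58 and 77 over the 12 libraries. Signs were mixed in cyp-25A (2 of 4 positive), cyp-31A (1 of 3), cyp-13B (1 of 2) and cyp-35A (3 of 4). Cyp-14A5 alone among the members passed the test. The lowest values were −0.68 ± 0.31 for cyp-31A3, −0.67 ± 0.31 for cyp-31A5, −1.11 ± 0.79 for cyp-13B2, −0.75 ± 0.54 for cyp-25A1 and −0.68 ± 0.57 for cyp-35A5, with edgeR adjusted p-values from 0.163 to 0.373.

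The wild-type aggregate libraries were also compared with all others, and 8 members, 13.3% of those tested, stood higher in both than in the other 10, beside 9.64% of all genes, which is near that background. They were cyp-13A3, cyp-14A5, cyp-25A3, cyp-29A2, cyp-33C3, cyp-33D1, cyp-33E1 and cyp-43A1. No member was lower in both, beside 5.84% of all genes. Markers of hypodermis and moult summed to 1792 and 1707 CPM in these libraries at 22 and 20 °C and to 249.4 to 747.2 CPM in the others except nth-1 with no tau and aggregate tau, where they summed to 2344 and 2522 CPM. Sperm markers summed to 122.6 and 136.0 CPM, to 514.3 and 573.7 CPM in that nth-1 pair, and to 28.3 to 51.0 CPM elsewhere. All 12 genes of both lists were found and none stood at 0 throughout. Of the hypodermis sums, col-19, an adult collagen gene, took 1709 and 1619 CPM. Without it the list summed to 83.0 and 88.3 CPM in the wild-type aggregate libraries, against 28.0 to 90.2 CPM in the other wild-type ones. Of those 90.2 CPM, in wild type with anti-aggregate tau at 22 °C, nas-37 took 73.56 CPM. Among the mutants, the list without col-19 summed to 102.1 CPM in ung-1 with aggregate tau, of which nas-37 took 87.78 CPM. In nth-1 with no tau and aggregate tau it summed to 109.3 and 148.3 CPM. These 3 sums lay above both wild-type aggregate libraries. In both wild-type aggregate libraries, 10 of the 12 hypodermis genes and 10 of the 12 sperm genes stood above every other wild-type library. Of the sperm sums, spe-44 took 70.7 and 72.3 CPM. Without it they were 51.89 and 63.75 CPM, against 4.35 to 21.5 CPM in the other wild-type libraries. The part of these markers in the P450 values was not tested.

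On the mutant backgrounds cyp-14A5 and cyp-33C3 stood near their levels with no tau. Cyp-14A5 stood at 11.40 CPM with aggregate and 14.82 CPM with no tau in ung-1, and at 14.13 and 16.03 CPM in nth-1. Cyp-33C3 stood at 3.11 and 2.998 CPM in ung-1 and at 5.39 and 4.29 CPM in nth-1. Neither gene's pair differed by as much as on the wild-type background, where cyp-14A5 had single-library log2 ratios of 2.35 and 3.26. No member was called for aggregate tau on the mutants in edgeR (0% of all genes, with 1 member at an unadjusted p under 0.05, 1.67% beside 0.394%). The smallest p belonged to cyp-37B1, at a log2 fold change of 3.73 ± 1.35, and it stood at 14.51 CPM with aggregate and 0.611 CPM with no tau in ung-1 and at 0.124 and 0.0452 CPM in nth-1. Both nth-1 values lie under the limit that a count of 0 allows in these libraries, 0.186 and 0.136 CPM, so no ratio is read from nth-1. The lowest values were those of cyp-35D1 at −1.57 ± 1.002, cyp-14A1 at −1.41 ± 0.96 and cyp-13B2 at −1.08 ± 0.80.

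The difference of the aggregate effects between mutant and wild-type backgrounds was tested directly. It was −3.09 ± 0.67 on the log2 scale for cyp-14A5 (edgeR adjusted p = 0.254), −1.84 ± 0.54 for cyp-25A3 (0.380) and −2.74 ± 0.82 for cyp-33C3 (0.385). No member was called, 2 of 15245 genes were (0.0131%, both lower), and 4 members had an unadjusted p under 0.05, 6.67% beside 11.7% of all genes. Among positive differences, cyp-31A3 had the smallest p, at 0.64 ± 0.43, with an edgeR adjusted p of 0.466. The members' median difference was −0.65, beside −0.33 over all genes, and it was −0.19 without the wild-type aggregate library at 20 °C and −1.22 without that at 22 °C. With DESeq2 cyp-14A5 and cyp-25A3 passed, and cyp-14A5 passed in edgeR when the anti-aggregate library of either mutant was left out.

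Within the aggregate strain, loss of a glycosylase gave no called member in edgeR, beside 0.984% of all genes, with 3 members at an unadjusted p under 0.05, 5.0% beside 10.4% of all genes. Cyp-44A1 (chromosome II, 5504044 to 5505975) stood at 93.02 CPM in wild type and 56.97 CPM in ung-1 at 22 °C, and at 82.76 CPM in wild type and 34.39 CPM in nth-1 at 20 °C. Both mutants were lower than the wild type of their temperature. Its log2 fold change was −0.997 ± 0.26 (edgeR adjusted p = 0.201), that of cyp-14A5 −1.66 ± 0.48 (0.251) and that of cyp-35A2 −1.12 ± 0.44 (0.431). Cyp-44A1 and cyp-14A5 passed with DESeq2, and in edgeR without the anti-aggregate library of either mutant. The positive value of smallest p was that of cyp-37A1, at 0.56 ± 0.41. The members' median was −0.44, beside 0.00 over all genes, and −0.69 beside −0.23 under total counts. It turned to 0.18 without the wild-type aggregate library at 20 °C, and was −0.72 without that at 22 °C and −0.27 without nth-1 with aggregate tau, so no direction is read from it.

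Over all 4 backgrounds, aggregate over no tau gave positive values for 53 of 60 members, 88.3% beside 59.9% of all genes. The members' median log2 fold change was 0.66 beside 0.26 over all genes. None of the members was called in edgeR (0% of all genes), with 10 members at an unadjusted p under 0.05, 16.7% beside 12.3%. Without the wild-type aggregate library at 20 °C the members' median was 0.37. These 4 backgrounds include the wild-type libraries described above. The smallest p-values were those of cyp-32B1 at 2.99 ± 0.85, cyp-37B1 at 2.85 ± 0.94, cyp-34A2 at 1.14 ± 0.41 and cyp-13A4 at 1.33 ± 0.49, all with an edgeR adjusted p of 0.363, and of cyp-33D1, which had 2 to 4 counts in each library with no tau and 3 to 15 with aggregate tau, so no fold is given. Cyp-37B1 stood at 0.0788 and 0.0452 CPM with no tau in wild type and nth-1 at 20 °C. Both lie under the limit that a count of 0 allows there, 0.118 and 0.136 CPM. Among negative values, cyp-13B2 had −1.09 ± 0.53 and cyp-31A3 −0.36 ± 0.22. DESeq2 called cyp-32B1. Without overlap, 6 members, 10% of those tested, stood higher in all 4 aggregate libraries than in all 4 libraries with no tau, beside 2.06% of all genes. These were cyp-13A4, cyp-13A6, cyp-33C7, cyp-33D1, cyp-33E1 and cyp-42A1, and no member was lower in this way, beside 2.0% of all genes.

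Cyp-33E1 shows the size of such a separation. With aggregate tau it stood at 8.501 and 6.51 CPM in wild type and nth-1 at 20 °C and at 8.96 and 7.91 CPM in wild type and ung-1 at 22 °C. With no tau it stood at 3.51, 6.01, 4.31 and 6.41 CPM in the same order. The groups did not overlap, but the counting intervals of nth-1 with aggregate tau and ung-1 with no tau overlapped.

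Anti-aggregate tau gave no called member over no tau (0% of all genes, and 2 members at an unadjusted p under 0.05, 3.33% beside 1.66%) and a median of 0.05 beside 0.00 over all genes, which turned to −0.15 without wild type with anti-aggregate tau at 22 °C. Cyp-13A4 stood between 2.07 and 5.89 CPM in the 4 anti-aggregate libraries and between 0.698 and 1.89 CPM in the 4 with no tau, without overlap. It was the 1 member higher in this way, 1.67% beside 0.23% of all genes, at a log2 fold change of 1.12 ± 0.50 (edgeR adjusted p = 0.997). Cyp-33D1, at 0 to 0.0465 CPM against 0.0555 to 0.164 CPM with no tau, was the 1 member lower in this way, 1.67% beside 0.584% of all genes, on very few counts. Aggregate over anti-aggregate tau gave no called member either (0% of all genes, and 10 members at an unadjusted p under 0.05, 16.7% beside 33.1%). Here 48 of 60 values were positive, 80% beside 60.3% of all genes. The median was 0.62 beside 0.35 over all genes, or 0.75 beside 0.47 under total counts. Without the wild-type aggregate library at 20 °C the members' median was 0.31. There the values of cyp-14A5 (1.97 ± 0.66), cyp-43A1 (1.22 ± 0.43), cyp-34A2 (1.13 ± 0.40) and cyp-33C3 (1.66 ± 0.61) had an edgeR adjusted p of 0.137. Among negative values, the smallest p-values were those of cyp-31A3 at −0.55 ± 0.23 and cyp-31A5 at −0.58 ± 0.24. DESeq2 called cyp-14A5 and cyp-32B1. Cyp-33D1, with the smallest p, stood at 0.186 to 0.886 CPM with aggregate tau and at 0 to 0.0465 CPM with anti-aggregate tau, and no fold is given because its anti-aggregate counts lie under the limit that a count of 0 allows.

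A second set of members peaked in 2 libraries of different genotype, wild type with anti-aggregate tau and ung-1 with aggregate tau, both at 22 °C. The pattern was noticed after the values were seen. Over the tested members, the highest library was wild type with aggregate tau at 22 °C for 13 (21.7%, beside 9.98% of all genes) and ung-1 with aggregate tau for 13 (21.7%, beside 7.04%). It was wild type with anti-aggregate tau at 22 °C for 11 (18.3%, beside 3.29%) and wild type with aggregate tau at 20 °C for 9 (15%, beside 7.22%). Nth-1 with aggregate tau was highest for 4 (6.67%), beside 25.2% of all genes. Wild type with anti-aggregate tau and ung-1 with aggregate tau at 22 °C were the 2 highest libraries for 14 of 60 tested members, 23.3%, beside 5.3% of all genes. The members were cyp-13A1, cyp-13A5, cyp-13A7, cyp-13A12, cyp-13B1, cyp-33C4, cyp-33C7, cyp-33C9, cyp-33E3, cyp-34A9, cyp-34A10, cyp-35A2, cyp-37A1 and cyp-37B1.

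Cyp-13A5 (chromosome II, 9798277 to 9800362) stood at 36.60 and 31.98 CPM there and at 0.992 to 10.92 CPM in the other 10 libraries. Cyp-34A9 (chromosome V, 3968134 to 3970540), a gene known as a target downstream of the transcription factor DAF-16, stood at 33.40 and 35.23 CPM there and at 2.60 to 8.13 CPM elsewhere. Cyp-37B1 (chromosome V, 16278116 to 16280616) stood at 7.75 and 14.51 CPM there and at 0.0452 to 2.04 CPM elsewhere. In each of these genes a gap separated the 2 libraries from the rest. Cyp-37A1, at 32.84 and 36.20 CPM against 5.75 to 19.90 CPM, and cyp-13A7, at 5.43 and 6.89 CPM against 0.093 to 1.00 CPM, showed the same ranking. Cyp-13A12, known from worms for its role in behaviour after oxygen returns, did so with a smaller gap, at 2.69 and 3.01 CPM against 0.605 to 2.48 CPM.

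Cyp-32B1 (chromosome V, 2197997 to 2201415) combined both patterns and had the widest range of the members with a mean of at least 5 CPM, 81.1-fold from lowest to highest. It stood at 15.97 and 12.57 CPM in wild type at 22 °C with aggregate and anti-aggregate tau, at 15.33 CPM in ung-1 with aggregate tau and at 10.98 CPM in wild type with aggregate tau at 20 °C. The other 8 libraries lay between 0.197 and 3.64 CPM. After cyp-32B1 came cyp-13A5 with 36.9-fold, cyp-14A5 with 13.9-fold, cyp-34A9 with 13.5-fold, cyp-33C8 with 12.3-fold and cyp-25A1 with 9.72-fold.

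**Figure D4:**
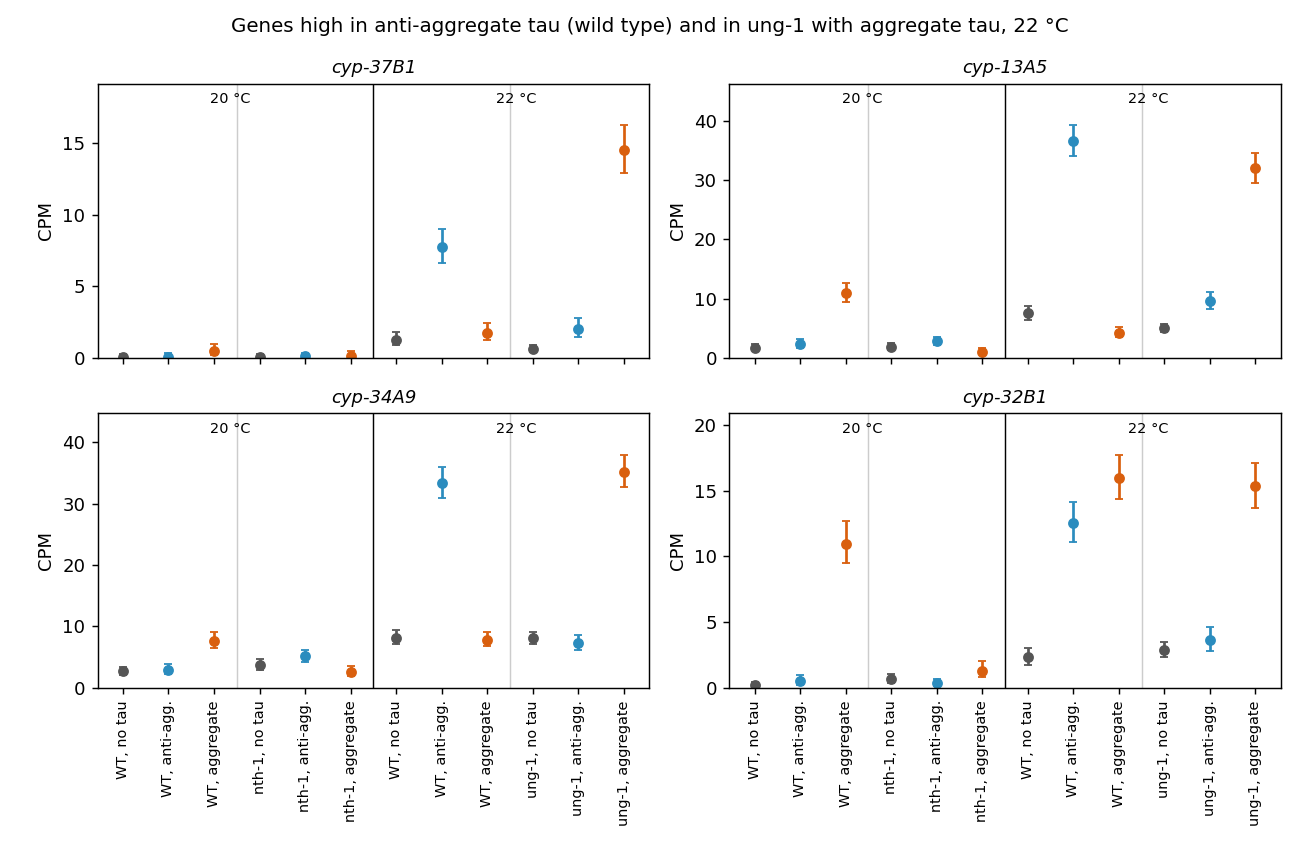
Levels in CPM (linear axis from 0) of cyp-37B1, cyp-13A5, cyp-34A9 and cyp-32B1 in the 12 libraries, 1 point a library with its 95% Poisson counting interval. Wild type with anti-aggregate tau and ung-1 with aggregate tau, both at 22 °C, stand apart for the former 3, at 36.6 and 31.98 CPM for cyp-13A5, while cyp-32B1 is also high in both wild-type aggregate libraries.

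The summed level of intestine markers was also highest in that pair of libraries, but not that of every marker. Of 12 listed, 11 were found and none stood at 0, and their sum was 7308 CPM in wild type with anti-aggregate tau and 9177 CPM in ung-1 with aggregate tau, against 2522 to 5999 CPM in the other 10. The peptidase gene cpr-1 took 3520 and 4210 CPM of these sums. Without cpr-1 they were 3787 and 4967 CPM, and nth-1 with aggregate and with no tau had 5253 and 4843 CPM. Of the 11 markers, 4 were highest in the pair and 5 were highest in nth-1 with no tau and aggregate tau, such as act-5, an intestinal actin gene, at 870.7 and 1037 CPM against 194.1 to 455.1 CPM elsewhere. Their part in the P450 values was not tested.

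Levels at 22 °C were compared with those at 20 °C on the wild-type background, where temperature cannot be told apart from anything else that differed between the sets of libraries grown at each. Of 60 members, 50 had positive values, 83.3% beside 52.1% of all genes, with a median log2 fold change of 0.79 beside 0.03 over all genes. The members' median was 0.37 without wild type with anti-aggregate tau at 22 °C, 0.48 without its counterpart at 20 °C, and 1.26 without wild type with aggregate tau at 20 °C. No member was called in edgeR (0% of all genes), and 12 members, 20% of those tested, had an unadjusted p under 0.05 beside 7.52% of all genes. DESeq2 called cyp-14A2 and cyp-37B1. Cyp-14A2 (chromosome X, 13267562 to 13269686) stood at 5.01, 7.51 and 7.19 CPM in wild type at 22 °C with no, anti-aggregate and aggregate tau, and at 0.748, 0.731 and 1.95 CPM at 20 °C. The ung-1 libraries at 22 °C lay at 4.69 to 6.36 CPM and the nth-1 libraries at 20 °C at 1.27 to 2.23 CPM, so the 6 libraries of each temperature did not overlap. Its log2 fold change was 2.61 ± 0.46 (edgeR adjusted p = 0.427).

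Cyp-35C1 (chromosome V, 13896663 to 13898487) and cyp-37B1 also separated all 6 libraries at 22 °C from all 6 at 20 °C, which makes 3 members, 5.0%, beside 1.5% of all genes. Cyp-35C1 stood at 19.02 to 29.41 CPM at 22 °C and at 5.56 to 14.58 CPM at 20 °C. Its log2 fold change on the wild-type background was 1.05 ± 0.32 (edgeR adjusted p = 0.625). Within the wild-type libraries alone, 11 members, 18.3%, were higher at 22 °C without overlap, beside 5.9% of all genes, and 1 was lower, 1.67% beside 2.3%. The latter was cyp-35D1, which metabolises the drug thiabendazole in worms. It stood at 0.696 to 1.10 CPM at 22 °C and at 1.38 to 1.89 CPM at 20 °C. The remaining smallest p-values belonged to cyp-37B1 at 4.53 ± 1.07, on 2, 1 and 8 counts in the wild-type libraries at 20 °C, cyp-34A2 at 1.94 ± 0.48 and cyp-37A1 at 1.38 ± 0.39, and among negative values to cyp-31A2 at −0.83 ± 0.46, which holds the low library described above. Their edgeR adjusted p-values ran from 0.521 to 0.668.

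In nth-1 at 20 °C some of the most abundant members had low levels. Members lower than in wild type without overlap made up 10% of those tested, beside 8.38% of all genes, which is near that background. Cyp-25A1 (chromosome III, 3832591 to 3834586) stood at 3.30, 8.42 and 2.60 CPM in nth-1 with no, anti-aggregate and aggregate tau, and at 15.59, 17.91 and 13.05 CPM in wild type. Cyp-35A2 (chromosome V, 7362319 to 7364182) stood at 11.65, 24.46 and 12.08 CPM in nth-1 and at 30.71, 33.82 and 62.87 CPM in wild type. Cyp-44A1 stood at 36, 63.52 and 34.39 CPM in nth-1 and at 81.55, 82.99 and 82.76 CPM in wild type. In all 3 genes the genotypes did not overlap, and the nth-1 library with anti-aggregate tau lay nearest to wild type.

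The log2 fold changes were −1.78 ± 0.43 for cyp-25A1 and −1.41 ± 0.34 for cyp-35A2 (edgeR adjusted p = 0.0692 for both) and −0.90 ± 0.26 for cyp-44A1 (0.0723). No member was called in edgeR (0% of all genes), and 11 members had an unadjusted p under 0.05, 18.3% of them, beside 36.6% of all genes. DESeq2 called 9 members, beside 27.6% of all genes. Without the nth-1 library with anti-aggregate tau, edgeR called 11 members, 18.3% of those tested beside 34.9% of all genes, namely cyp-13B2, cyp-25A1, cyp-25A2, cyp-31A3, cyp-31A5, cyp-32A1, cyp-33C5, cyp-35A2, cyp-35A3, cyp-35C1 and cyp-44A1. Without the ung-1 library with aggregate tau it called cyp-25A1 and cyp-35A2, beside 10.1% of all genes.

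Among positive values in nth-1, the smallest p-values were those of cyp-34A2 at 1.46 ± 0.48 (edgeR adjusted p = 0.0836) and cyp-32A1 at 1.41 ± 0.52 (0.0999). Cyp-32A1 stood at 7.36, 2.51 and 9.36 CPM in nth-1 with no, anti-aggregate and aggregate tau and at 1.38, 1.52 and 4.72 CPM in wild type, so the genotypes overlapped. Of the tested members, 6, which is 10%, were lower in nth-1 without overlap, beside 8.38% of all genes, and 2, which is 3.33%, were higher, beside 6.05%. Both shares lie near the background. The lower ones were cyp-25A1, cyp-25A2, cyp-25A4, cyp-35A2, cyp-35A3 and cyp-44A1, and the higher ones cyp-34A2 and cyp-34A6. Cyp-36A1, which acts downstream of the oxygen sensor EGL-9 and HIF-1 in worm behaviour, stood at 8.63, 2.74 and 7.75 CPM in nth-1 and at 3.82, 1.83 and 7.44 CPM in wild type, with overlap.

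For loss of ung-1 at 22 °C, edgeR called no member (0% of all genes), and 1 member, cyp-34A5, had an unadjusted p under 0.05, 1.67% beside 1.05% of all genes. Cyp-34A5 stood at 0.111, 0.110 and 0.0485 CPM in ung-1 with no, anti-aggregate and aggregate tau and at 0.287, 0.742 and 0.971 CPM in wild type, and its ung-1 counts were 4, 2 and 1. Of the tested members, 5, which is 8.33%, were lower in ung-1 without overlap, beside 2.87% of all genes. They were cyp-14A4, cyp-34A5, cyp-34A7, cyp-35A3 and cyp-35A5, and no member was higher, beside 2.13%. Of these, cyp-35A3 stood at 5.61, 3.36 and 3.74 CPM in ung-1 with no, anti-aggregate and aggregate tau and at 7.76, 8.998 and 6.05 CPM in wild type. Every wild-type value of cyp-35A3 lay above every ung-1 value. Cyp-14A4 and cyp-34A7 rest on very few counts, with totals of 56 and 87 over the 12 libraries. The lowest wild-type value of cyp-14A4 was 0.0928 CPM, with anti-aggregate tau, and its highest ung-1 value 0.0833 CPM, with no tau. No ung-1 effect is read from these low-count members. Among positive values in ung-1, the smallest p-values were those of cyp-25A2 at 0.46 ± 0.33 and cyp-36A1 at 0.81 ± 0.60.

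The ung-1 and nth-1 effects were compared with each other, and no member was called (0% of all genes, and 7 members at an unadjusted p under 0.05, 11.7% beside 18.4%). The difference, ung-1 minus nth-1, was 2.02 ± 0.60 on the log2 scale for cyp-25A1, 1.33 ± 0.47 for cyp-25A2, 1.24 ± 0.48 for cyp-35A2 and −1.73 ± 0.66 for cyp-34A2, each with an edgeR adjusted p of 0.259. Without the nth-1 library with anti-aggregate tau, cyp-25A1, cyp-25A2 and cyp-31A5 passed. Temperature differs between these effects and cannot be told apart from the gene.

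**Figure D5:**
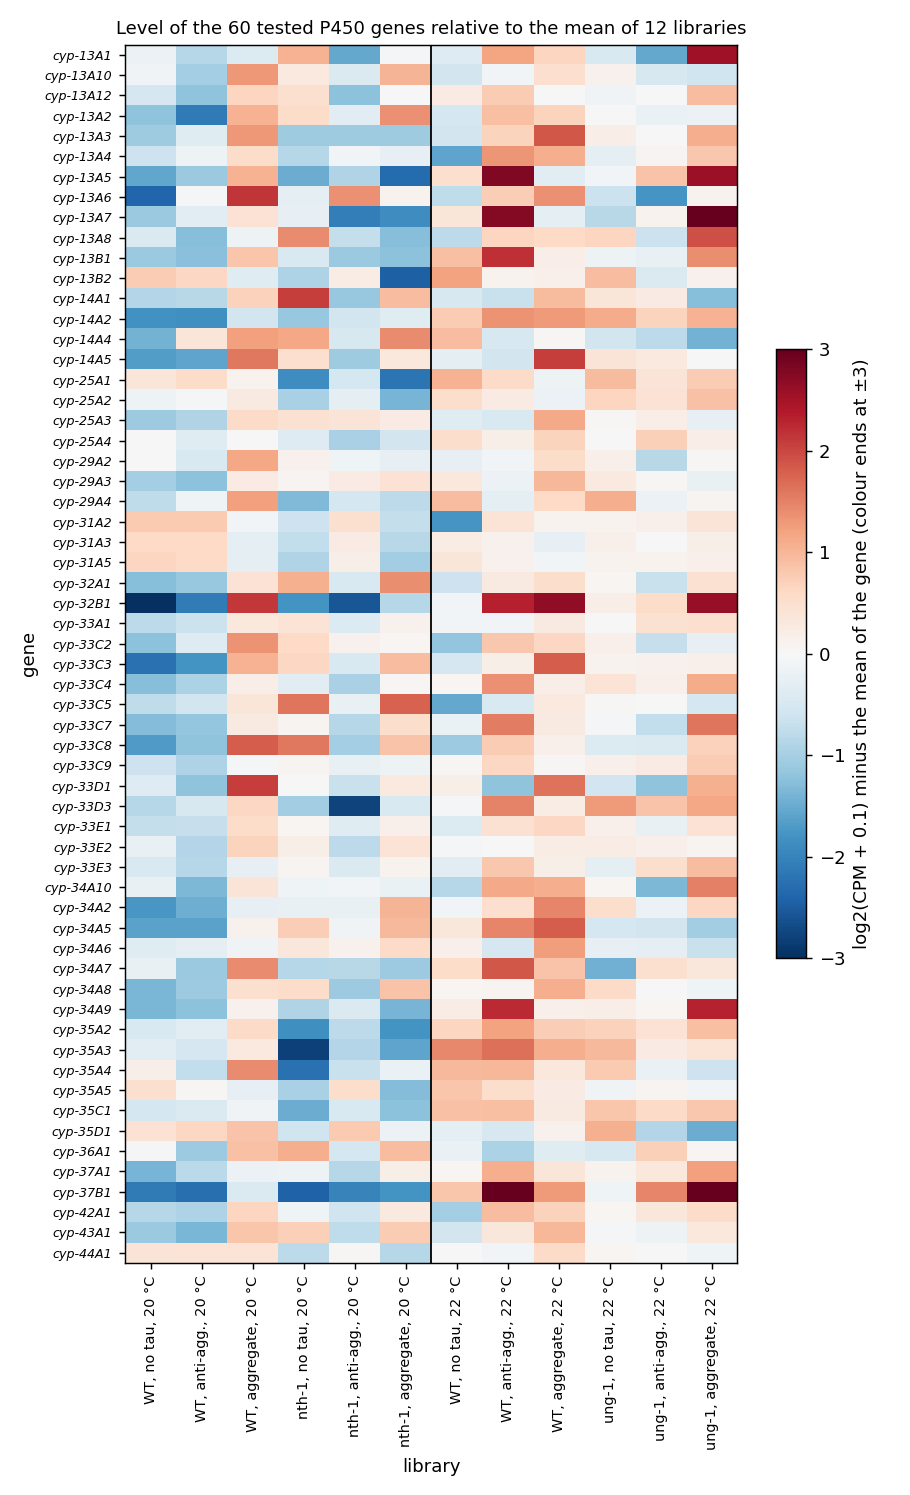
Log2(CPM + 0.1) of each of the 60 tested members (rows, by name) in the 12 libraries (columns, by temperature, background and tau state), minus the member's mean over the libraries, with colours that end at ±3. Red marks levels above the mean and blue below it: cyp-13A5, cyp-13A7, cyp-34A9 and cyp-37B1 are deepest red in wild type with anti-aggregate tau and ung-1 with aggregate tau at 22 °C, while cyp-25A1, the cyp-31A genes, cyp-35A2 and cyp-44A1 are blue in nth-1 with no tau and aggregate tau.

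Neighbouring genes did not always share a pattern. In the annotation, 38 of the 74 members lay in 11 runs of 2 to 7 adjacent protein-coding genes. In the run of 3 on chromosome III (3832591 to 3839735), cyp-25A1 and cyp-25A2 had log2 values of −1.78 and −0.87 in nth-1, while cyp-25A3 had 0.86. The longest run holds 7 cyp-13A genes on chromosome II (9783384 to 9807569), and cyp-13A5 and cyp-13A7 peaked in the pair of libraries at 22 °C described above. Their neighbour cyp-13A2 was highest in nth-1 with aggregate tau, at 9.98 CPM, and wild type with aggregate tau at 20 °C, at 7.91 CPM. In the run of 6 cyp-34A genes on chromosome V (3955701 to 3972991), cyp-34A9 peaked in the same pair, and cyp-34A8 was highest in wild type with aggregate tau at 22 °C, at 20.17 CPM, and nth-1 with aggregate tau, at 17.04 CPM. Cyp-35A5 was read in all 12 libraries at 0.744 to 3.57 CPM, while the 3 cyp-35B genes next to it on chromosome V (3936326 to 3947044) went untested.

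Other members listed for a known role stood below the cyp-31A genes in level. Cyp-33E2, which makes eicosanoids and acts in the pharynx, stood at 2.93 to 8.74 CPM over the 12 libraries, and cyp-29A3, another eicosanoid-forming gene, at 0.914 to 4.59 CPM. Cyp-14A4 stayed at 0 to 0.620 CPM. Pharynx markers, of which all 8 were found and none stood at 0, summed to 5.36 to 80.0 CPM. No call was made for these 3 genes in any of the 11 comparisons.

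The genes that work with P450 enzymes or regulate them were taken as a list of 25, of which 24 were tested and hsd-1 was not. None was called in any of the 11 comparisons. Emb-8, the reductase, stood at 119.3 to 220.1 CPM, and both wild-type aggregate libraries were the lowest, at 139.5 CPM at 22 °C and 119.3 CPM at 20 °C. Its log2 fold change for aggregate over no tau on wild-type backgrounds was −0.48 ± 0.13 (edgeR adjusted p = 0.106), opposite in sign to the 53 positive members. The epoxide hydrolase gene ceeh-1, whose enzyme breaks down lipid epoxides of the kind that P450 enzymes form, stood at 14.45 to 22.77 CPM at 22 °C and 4.88 to 14.76 CPM at 20 °C. Its log2 fold change with temperature in wild type was 1.29 ± 0.33 (edgeR adjusted p = 0.523).

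In nth-1, mdt-15, a mediator subunit of lipid and detoxification genes, had a log2 fold change of 0.56 ± 0.13, and daf-16 one of 0.45 ± 0.10, both with an edgeR adjusted p of 0.0692. Hif-1 had 0.91 ± 0.25 (adjusted p = 0.0714, edgeR). The hormone-forming P450 gene daf-9, which bears no cyp name and is no member, stood at 0.305 to 2.89 CPM and was highest in nth-1 with no tau and aggregate tau. Over the 24 genes, 21 had positive values in nth-1 with a median of 0.50, beside a median of 0.17 over all genes with 56.5% positive.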

How the data were processed

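RNA of whole worms was sequenced in 12 libraries, grouped by the genotype and temperature labels. The authors deposited 1 file of read counts per library, whole numbers that are not normalised. Reads were aligned with HISAT2 to WBcel235, and edgeR 3.22.5 was used, per the submitters' processing notes. How genes were counted, with which program, use of strand and treatment of reads with several matches, is not given in the sources used here. Ensembl's WBcel235 annotation gave names and coordinates and matched 46183 of 46589 identifiers. Exons of 24 members overlapped another gene, by at most 8.4% of their length.

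The tests used edgeR 4.0.16 under R 4.3.3 (quasi-likelihood test, TMM scaling, default low-count filter on the design, 15245 genes, Benjamini-Hochberg adjustment over all of them at 0.05). The low-count filter was first run by tau state and then replaced by the design-based one, after results were seen. Of these 2 filters, cyp-14A5 passed under the latter only. One fit had background and tau state (6 residual degrees of freedom), and another added loss of a glycosylase by tau state (4). Contrasts on wild-type or mutant backgrounds and within aggregate tau came from the latter. A log2 ratio of single libraries used a prior count of 2. The tests were checked on simulated data, with changes given to genes of at least 1 CPM. For aggregate tau on wild-type backgrounds, 2% of 2-fold and 34% of 4-fold changes were called. For nth-1 these shares were 15% and 45%, and for aggregate tau over 4 backgrounds 24% and 68%. The simulated counts held no other differences between backgrounds or tau states, unlike the data. Alternatives were other size factors, other filters, DESeq2 1.42.0, limma 3.58.1 voom and leaving out each library. Named were members past the threshold or, where fewer than 5 passed, those of smallest p, the most abundant, the most variable and those of known role. The members and lists were chosen with earlier results of these data known. Promoter and protein sequences were not analysed here.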

Additional observations from a re-analysis of the deposited data

How the results depend on the processing

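Counts of called members depended on the tool, the filter and single libraries, and the cause was not tested. For aggregate tau on wild-type backgrounds, 1 member was called, against 9 with DESeq2 (21.7% of all genes), 3 with limma voom (5.1%), 0 with DESeq2's size factors in edgeR and 0 with the filter by tau state, an alternative listed after the data were seen. For nth-1 the count was 0, against 9 with DESeq2 (27.6% of all genes), 3 with limma voom (9.09%), 3 with a filter of 5 CPM in 3 libraries (17.3%) and 2 with total counts (9.26%). DESeq2 called 2 members for temperature, 2 for aggregate over anti-aggregate tau, 1 for aggregate tau over 4 backgrounds, 2 within aggregate tau and 2 for the interaction, where edgeR called 0. Leaving out each library in turn gave 0 to 14 members for aggregate tau on wild-type backgrounds: 13 without nth-1 with anti-aggregate tau (36.2% of all genes), 14 without ung-1 with anti-aggregate tau (31.3%), 1 without nth-1 with aggregate tau and 0 without any of the other 9. The range was 0 to 11 for nth-1, 0 to 3 for ung-1 minus nth-1, 0 to 2 within aggregate tau and 0 to 1 for the interaction. The remaining comparisons stayed at 0 in this test. No paired analysis of replicates was possible because each genotype had 1 library at each temperature. Background is a term of both fits, so tau states were compared within backgrounds. With 4 or 6 residual degrees of freedom and 1 library a group, a missed threshold does not show that levels were equal, and the 30 members under 1 CPM rest on few counts.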
